A study of Mus musculus with 24 samples.

Results

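The comparison described here set epididymal adipocyte cultures from mice with an adipocyte deletion of Senp2 against epididymal control cultures, with the transcription factor gene Cebpb knocked down by siRNA in both. It rested on 6 of the 24 libraries of the series, chosen by their labels: 3 of eWAT aKO siCEBPb and 3 of eWAT Cont siCEBPb. All genes of the deposited count table were considered, and 14785 of 53465 had enough reads to be tested. The cells were stromal vascular cells of mouse epididymal white fat (eWAT), grown and turned into adipocytes in culture. The aKO mice were Senp2flox/flox ; Adipoq Cre, so that Cre is driven by the adiponectin promoter, which is active in differentiating and mature adipocytes. The Cont mice were Senp2flox/flox without the Cre, and hence both genotypes carried the floxed allele. Both groups received siCEBPb and the same differentiation mix, in 10% serum: dexamethasone, IBMX (0.5 mmol/l) and insulin (0.1 mg/ml) for 2 days, then insulin at 1 µg/ml for 5 days. Ages are not given in the labels. What the 3 replicates of a group stand for, animals or dishes, is not given there either, and p-values therefore cover the spread among these libraries, which may be technical. Because cells in such a culture that never turn on Adipoq keep Senp2, the aKO libraries are a mixture as a model of the deletion. The matching pair of groups with siNS, an siRNA name the labels do not explain, and the matching pair from inguinal fat (iWAT) served for comparison.

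SENP2 is a protease that cuts the small protein SUMO off its targets, many of which are transcription factors and their cofactors. C/EBPβ, the product of Cebpb, is switched on in the first hours of adipocyte differentiation and helps to induce C/EBPα and PPARγ, which then run the genes of the mature fat cell. C/EBPβ is itself modified by SUMO, and SENP2 has been described as stabilising it in cultured preadipocytes. C/EBPβ also drives acute-phase and macrophage genes in many tissues.

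The 6 libraries held 13474432 to 15213555 counts assigned to genes. The aKO libraries varied more among themselves than the Cont libraries, with a median standard deviation per gene of 0.134 log2 CPM (counts per 1e6 counts, with a prior count of 2) in aKO and 0.094 in Cont. In aKO replicate 2, 24.8% of the reads were not aligned and 0.484% of gene counts came from mitochondrial DNA, whereas the other 5 libraries had 18.7% to 19.9% and 0.851% to 1.03%. The depot label could not be checked by expression. Wt1, a visceral fat marker, had 1.18, 1.85 and 1.31 CPM in the aKO libraries labelled eWAT and 1.38, 1.41 and 2.105 CPM in those labelled iWAT. In Cont it had 17.2, 13.8 and 15.4 CPM in eWAT and 14.6, 15.01 and 14.4 CPM in iWAT. Tbx15, Shox2, En1 and Hoxc10, which are usually higher in subcutaneous fat, were also close between the labelled depots, and of 7 depot genes only Hoxc9 in Cont passed the test between them (edgeR adjusted p = 0.0394). Libraries labelled eWAT and iWAT that carry the same replicate number also deviated together from their group means, with r of 0.748, 0.424 and 0.537 in aKO siCEBPb and, more weakly, of 0.08, 0.235 and 0.16 in Cont siCEBPb. The iWAT groups are therefore not treated as independent support, and no fit without the doubtful label was possible because it covers all 6 libraries.

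Senp2 itself (chr16:22009484-22049269, plus strand, GRCm38) was counted at 55.95, 50.9 and 52.8 CPM in the aKO libraries, against 50.8, 49.9 and 48.96 CPM in the Cont libraries. Every aKO library lay above every Cont library by a narrow margin, and the gene did not pass the test (log2 fold change 0.094 ± 0.072, edgeR adjusted p = 0.509). A count over the whole gene includes exons outside the floxed part and transcripts of cells without Cre, so it checks neither the deletion nor the labels. Cebpb (chr2:167688915-167690418, plus strand) fell further in the knockout, to 20.1, 32.6 and 29.5 CPM in the aKO libraries, against 57.3, 42.3 and 51.5 CPM in the Cont libraries. The 3 aKO libraries were all below the 3 Cont libraries (log2 fold change -0.88 ± 0.17, edgeR adjusted p = 0.00134). With siNS, Cebpb stood at 141, 158 and 155 CPM in aKO, against 156, 166 and 181 CPM in Cont, a difference that did not pass the test (log2 fold change -0.15 ± 0.15, edgeR adjusted p = 0.552). Every siCEBPb library thus held less Cebpb than any siNS library, and the level that remained was lower in aKO than in Cont. Genotype and remaining Cebpb level therefore go together in the siCEBPb libraries. Their parts in the genotype differences below, and in how these differ between the siRNAs, cannot be told apart. Tested directly, the genotype effect on Cebpb with siCEBPb did not differ from that with siNS past the threshold. In the C/EBP list Ddit3 alone had such a difference, a more negative one under siCEBPb. That count of 1 was 2 with a replicate block and 3 with limma voom or DESeq2. It was also 3 without Cont siCEBPb replicate 2 or aKO siCEBPb replicate 2. Whether Cebpb was then among them is not given here. Cebpb has a single exon and lies opposite Tmem189, from which its reads can be told apart only if counting used the strand of the kit, a setting that the sources used here do not give.

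Across all genes, 1592 of 14785 (10.8%) passed an adjusted p of 0.05 in edgeR's quasi-likelihood test with Benjamini-Hochberg adjustment. Of these, 576 rose in aKO (3.90% of the tested genes) and 1016 fell (6.87%). The falls were larger as well as more numerous: 440 genes (2.98%) fell by more than 1 on the log2 scale and 99 (0.670%) by more than 2, while 56 (0.379%) rose by more than 1 and 10 (0.0676%) by more than 2. Of all tested genes, 4280 (28.9%) had no overlap between the genotypes, 1993 with aKO higher (13.5%) and 2287 with aKO lower (15.5%), and 3186 (21.5%) had an unadjusted p under 0.05. For the 15 rises and 15 falls chosen below by fold change, lack of overlap was a condition of the choice. For them it is no further support. The list genes named below were mostly the called members with the smallest p, a choice that also makes lack of overlap likely. For these genes, too, it describes the values and is no separate support. The median over all tested genes was -0.002. Without aKO replicate 1 the number of calls was 1097, the lowest count when any 1 of the 6 libraries was left out, and without Cont replicate 1 the rises numbered 366. All fold changes below are log2 values of aKO over Cont with the standard error of the fit.

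**Figure D1:**
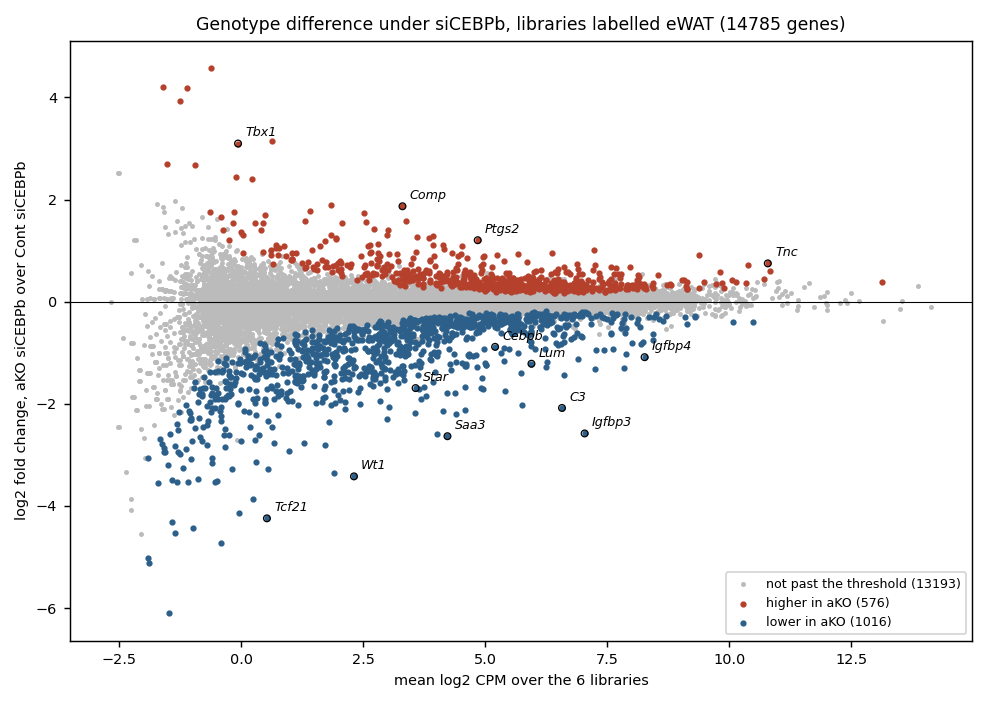
Log2 fold change of aKO over Cont with siCEBPb (vertical axis) against mean log2 CPM of the 6 libraries (horizontal axis), 1 point per tested gene, with genes past an adjusted p of 0.05 in colour. The 1016 falls reach further from 0 than the 576 rises, and most of the deepest falls are genes of low level.

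The deepest falls included genes that mark visceral fat and its mesothelial lining, the cell sheet that covers the organs of the body cavity. Wt1, a transcription factor of visceral fat precursors and mesothelium, had 1.18, 1.85 and 1.31 CPM in the aKO libraries, against 17.2, 13.8 and 15.4 CPM in the Cont libraries. Every aKO library was thus at a small fraction of the lowest Cont library (log2 fold change -3.42 ± 0.15, edgeR adjusted p = 3.67e-15). Tcf21, a transcription factor of visceral preadipocytes, was near the floor in aKO, with 0.262, 0.369 and 0.138 CPM in aKO, against 5.16, 4.89 and 4.93 CPM in Cont (log2 fold change -4.24 ± 0.29, edgeR adjusted p = 1.23e-10). Of 9 tested genes in a list of visceral markers, 7 fell and none rose, with a median of -1.02. Hoxa5, a homeobox factor, had 4.72, 4.51 and 4.29 CPM in aKO, against 10.1, 8.67 and 8.59 CPM in Cont (log2 fold change -1.02 ± 0.13, edgeR adjusted p = 2.39e-06). Nr2f1, a nuclear receptor, had 13.8, 17.7 and 12.8 CPM in aKO, against 25.1, 24.5 and 24.2 CPM in Cont (log2 fold change -0.74 ± 0.10, edgeR adjusted p = 1.16e-05). Neither gene had overlapping groups. Rspo1, a secreted enhancer of Wnt signalling, also fell, with 0.459, 0.369 and 0.899 CPM in aKO, against 2.58, 2.78 and 3.46 CPM in Cont (log2 fold change -2.33 ± 0.35, edgeR adjusted p = 3.56e-05).

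Of 9 tested mesothelial markers, 8 fell and the median was -2.41. Wt1 and Rspo1 belong to both lists, and the count was 4 without aKO replicate 1 or without aKO replicate 3 and 5 without Cont replicate 2. Summed over the list, the markers came to 11.3 to 13 CPM in aKO and 38.6 to 39.95 CPM in Cont. Upk3b, which encodes a uroplakin of mesothelium, had 0, 0.813 and 0 CPM in the aKO libraries, against 1.98, 3.51 and 2.198 CPM in the Cont libraries. Lrrn4, another mesothelial marker, had 0, 0.517 and 0 CPM in aKO, against 1.59, 3.51 and 0.866 CPM in Cont. Both genes were at 0 in 2 aKO libraries and were detected in all Cont libraries, so no fold is given for them. Upk1b and Gpm6a, also counted among the falls, had aKO libraries at 0 as well, and the median of -2.41 is the value of Upk1b. Such genes could pass the read filter only with libraries where they were higher. Their falls, and that median, are therefore no separate support. Msln, Muc16, Bnc1, Krt8 and Krt18, also in the mesothelial list, had too few reads to be tested, so the falls rest on its other members. In bulk RNA, fewer cells of a type and less RNA per cell cannot be told apart, and their parts in these falls were not tested.

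Genes of the subcutaneous pattern were split. In that list 4 of 14 tested genes rose and 3 fell, with a median of 0.15. Falls numbered 1 without Cont replicate 1, Cont replicate 2 or aKO replicate 2. Irx3 and Irx5, neighbouring homeobox genes on chromosome 8 with known roles in fat thermogenesis, both rose. Irx3 had 22.3, 26.9 and 24.8 CPM in aKO, against 18.3, 15.7 and 15.4 CPM in Cont (log2 fold change 0.58 ± 0.11, edgeR adjusted p = 5.30e-04). Irx5 had 19.6, 21.5 and 18.1 CPM in aKO, against 11.97, 12.4 and 12.3 CPM in Cont (log2 fold change 0.69 ± 0.10, edgeR adjusted p = 1.43e-05). Hoxd8 fell, with 6.49, 8.49 and 9.82 CPM in aKO, against 20.4, 17.7 and 17.2 CPM in Cont (log2 fold change -1.16 ± 0.12, edgeR adjusted p = 1.65e-07). For each of the 3 genes the groups did not overlap.

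**Figure D2:**
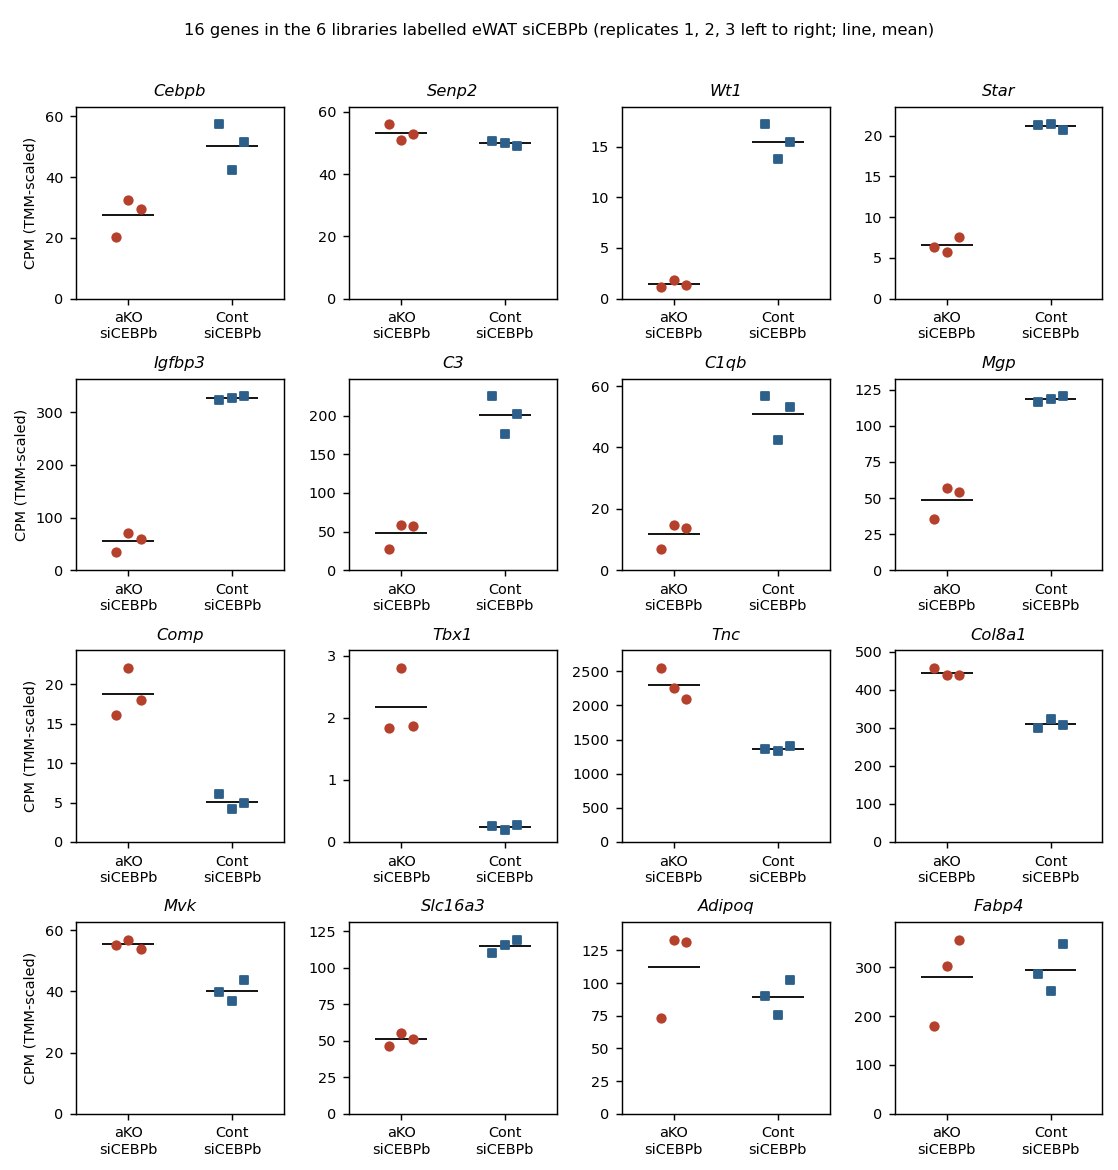
CPM of 16 genes in each of the 3 aKO siCEBPb libraries (left in each panel) and the 3 Cont siCEBPb libraries (right), with a line at the group mean and axes that start at 0. Wt1, Star, Igfbp3, C3, C1qb and Mgp are lower in every aKO library, Comp, Tbx1, Tnc, Col8a1 and Mvk are higher, Adipoq and Fabp4 overlap, and Senp2 nearly does.

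Other strong falls were of genes with varied roles. Star, the carrier that brings cholesterol to the site of steroid synthesis, had 6.29, 5.69 and 7.61 CPM in the aKO libraries, against 21.4, 21.4 and 20.7 CPM in the Cont libraries (log2 fold change -1.69 ± 0.12, edgeR adjusted p = 1.54e-10). Gdpd2, a glycerophosphodiester phosphodiesterase, had 0.983, 1.33 and 0.968 CPM in aKO, against 11.6, 10.1 and 11.9 CPM in Cont (log2 fold change -3.35 ± 0.22, edgeR adjusted p = 4.25e-11). Gabra3, a subunit of the GABA-A receptor, had 1.05, 1.11 and 1.31 CPM in aKO, against 7.41, 8.53 and 8.46 CPM in Cont (log2 fold change -2.80 ± 0.24, edgeR adjusted p = 4.26e-09). In none of these did an aKO library reach the lowest Cont library. Des, the muscle intermediate filament desmin, was likewise low in aKO, with 7.53, 6.65 and 7.47 CPM in aKO, against 26.9, 22.8 and 28.2 CPM in Cont (log2 fold change -1.84 ± 0.13, edgeR adjusted p = 1.54e-10). Slc16a3, which exports lactate, was among the falls with the smallest p and a high level, at 46.05, 55.5 and 50.8 CPM in aKO, against 109.7, 115 and 119 CPM in Cont (log2 fold change -1.18 ± 0.075, edgeR adjusted p = 4.25e-11).

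Leukocyte markers fell in the largest number of genes of the cell type lists. Of 24 tested markers 20 fell and none rose, with a median of -1.43, and the count lay between 19 and 21 when any 1 library was left out. The summed list had 159 to 314 CPM in aKO and 612 to 720 CPM in Cont. The lowest sum was that of aKO replicate 1. The complement subunit C1qb, made by macrophages, had 7.01, 14.6 and 13.8 CPM in the aKO libraries, against 56.7, 42.6 and 53.1 CPM in the Cont libraries (log2 fold change -2.12 ± 0.25, edgeR adjusted p = 1.17e-05). Mrc1, the mannose receptor of tissue macrophages, had 1.77, 4.95 and 4.15 CPM in aKO, against 16.2, 16.9 and 19.98 CPM in Cont (log2 fold change -2.31 ± 0.34, edgeR adjusted p = 1.59e-04). In each of these genes replicate 1 was the lowest of the aKO libraries, and no library crossed between the groups. Stab1, a scavenger receptor outside the list, had 3.54, 8.2 and 8.72 CPM in aKO, against 44.8, 31.1 and 46.6 CPM in Cont (log2 fold change -2.59 ± 0.35, edgeR adjusted p = 6.95e-05). Ctsc, the protease cathepsin C, also outside the list, had 3.47, 5.39 and 7.89 CPM in aKO, against 25.9, 25 and 24.6 CPM in Cont (log2 fold change -2.18 ± 0.29, edgeR adjusted p = 4.78e-05). The lymphocyte markers Cd3e, Cd79a, Ms4a1 and Nkg7 had too few reads to be tested. With siNS 14 markers of the list fell, where 10.9% of all genes fell, and the median was -0.64. Its sums there were 2099 to 2257 CPM in aKO and 2698 to 3768 CPM in Cont.

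Inflammatory effector genes changed in both directions. Of 28 tested genes of the acute phase and NF-kB list, 7 fell and 4 rose, with a median of -0.28 and 2 rises without Cont replicate 1 or without aKO replicate 1. C3, the central complement protein and a known C/EBPβ target, had 27.5, 57.99 and 57.4 CPM in the aKO libraries, against 225, 177 and 202 CPM in the Cont libraries (log2 fold change -2.08 ± 0.25, edgeR adjusted p = 1.70e-05). Saa3, an acute-phase apolipoprotein, had 4.32, 9.16 and 9.62 CPM in aKO, against 46.8, 39.8 and 55.8 CPM in Cont (log2 fold change -2.63 ± 0.25, edgeR adjusted p = 6.34e-07). Outside the list, complement C7, of the terminal attack complex, had 0.5896, 1.33 and 0.692 CPM in aKO, against 6.48, 5.95 and 5.26 CPM in Cont (log2 fold change -2.77 ± 0.25, edgeR adjusted p = 7.59e-09). All 3 were lower in each aKO library than in any Cont library. Icam1, a leukocyte adhesion molecule, fell less, with 29.7, 41.1 and 41.5 CPM in aKO, against 55.4, 50.01 and 59.1 CPM in Cont (log2 fold change -0.55 ± 0.093, edgeR adjusted p = 1.42e-04). The 4 rises were those of Ptgs2, the inducible cyclooxygenase (log2 fold change 1.204), and of 3 cytokine genes chosen here after their values were seen, Csf1 (0.45), Ccl7 (0.38) and Lif (0.34), where 3.90% of all genes rose. How much of the falls goes with the leukocyte markers was not tested. None of the 29 tested interferon-response genes passed, and their median was 0.11. Ifit1, an antiviral protein that is induced by interferon, had 171, 135 and 159 CPM in aKO, against 115, 107 and 98.5 CPM in Cont (log2 fold change 0.54 ± 0.20, edgeR adjusted p = 0.113), which did not pass although the groups did not overlap.

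Endothelial markers fell in 6 of 13 tested genes and rose in none, with a median of -0.92 and 6 falls in every fit that left out 1 library. Their sums were 112 to 116 CPM in aKO and 166 to 175 CPM in Cont, and Eng alone made up most of each sum. The other 7 tested genes did not pass. Flt1, a VEGF receptor, had 5.44, 5.54 and 6.36 CPM in aKO, against 14.6, 14.9 and 13.8 CPM in Cont (log2 fold change -1.32 ± 0.14, edgeR adjusted p = 1.35e-07). Pecam1, an adhesion molecule of the vessel wall, had 1.44, 1.18 and 1.25 CPM in aKO, against 4.17, 4.697 and 2.598 CPM in Cont (log2 fold change -1.56 ± 0.25, edgeR adjusted p = 7.10e-05). Eng, a TGF-β co-receptor that stromal cells also make, had 73.4, 65.9 and 64.9 CPM in aKO, against 106, 100.2 and 109 CPM in Cont (log2 fold change -0.63 ± 0.093, edgeR adjusted p = 2.73e-05). In these 3 genes the groups stood apart. None of 5 tested Schwann and neural markers passed the test, and none of 10 epithelial markers had enough reads.

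**Figure D3:**
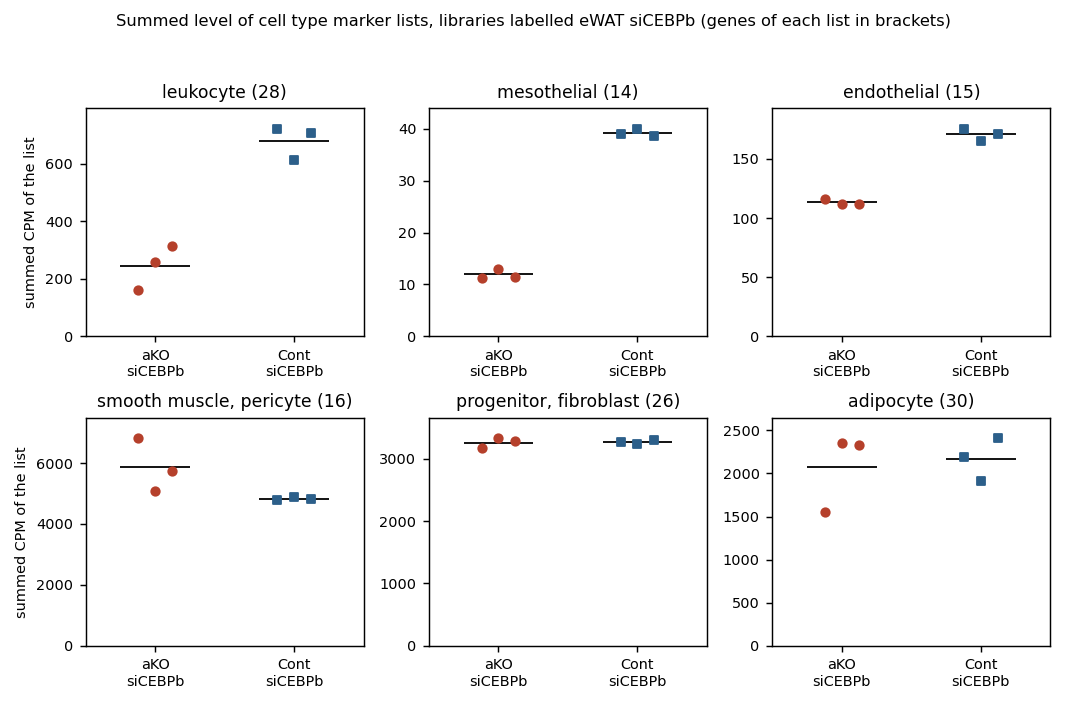
Summed CPM of 6 cell type marker lists in the 3 aKO siCEBPb libraries (left, circles) and the 3 Cont siCEBPb libraries (right, squares), with the number of genes in brackets, a line at the group mean and axes from 0. Leukocyte (159 to 314 against 612 to 720 CPM), mesothelial and endothelial sums separate the genotypes, progenitor and adipocyte sums do not, and the contractile sum is higher in each aKO library (5091 to 6808 against 4792 to 4874 CPM) and highest in aKO replicate 1.

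Genes of fibroblasts and adipocyte progenitors changed in part. Of 25 tested genes 9 fell and 2 rose, with a median of -0.23. Rises numbered 1 without Cont replicate 2, Cont replicate 3, aKO replicate 1 or aKO replicate 2. Dpp4, a peptidase that marks multipotent progenitors, had 0.131, 0.665 and 0.899 CPM in the aKO libraries, against 4.099, 3.903 and 3.53 CPM in the Cont libraries (log2 fold change -2.77 ± 0.35, edgeR adjusted p = 2.63e-06). The aKO values of Dpp4 were near the floor. Mgp, matrix Gla protein, an inhibitor of calcification, had 35.7, 56.8 and 53.9 CPM in aKO, against 116, 118 and 121 CPM in Cont (log2 fold change -1.28 ± 0.17, edgeR adjusted p = 3.59e-05). The proteoglycan lumican, Lum, which is not in this list, had 26.7, 45.2 and 51.8 CPM in aKO, against 94.6, 103 and 88.9 CPM in Cont (log2 fold change -1.22 ± 0.23, edgeR adjusted p = 0.00156). The groups were apart in all 3 genes, and aKO replicate 1 was the lowest library in each. Cd55, a complement inhibitor on the same progenitors, had 8.71, 7.39 and 10.7 CPM in aKO, against 18.6, 17 and 18.6 CPM in Cont (log2 fold change -1.02 ± 0.14, edgeR adjusted p = 8.31e-06). With siNS the same list ran the other way in its counts, with 11 rises and 3 falls, where 9.50% of all genes rose. Tested directly, the genotype difference was more negative under siCEBPb than under siNS in 9 members (3.33% of all genes) and more positive in 2 (3.01%), and the positive count was 0 without aKO siCEBPb replicate 1, Cont siCEBPb replicate 3, Cont siNS replicate 1 or aKO siNS replicate 3, and 1 without most of the other libraries.

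In the insulin-like growth factor system the ligand and a main binding protein fell. Igfbp3, which carries IGFs and limits their access to receptors, had 35.2, 70.1 and 58.9 CPM in the aKO libraries, against 323, 327 and 330.1 CPM in the Cont libraries. The highest aKO library was far below the lowest Cont library (log2 fold change -2.58 ± 0.20, edgeR adjusted p = 3.23e-08). Igf1, the ligand, had 62.9, 88.7 and 93.3 CPM in aKO, against 179, 177 and 179.5 CPM in Cont (log2 fold change -1.13 ± 0.15, edgeR adjusted p = 1.69e-05). Igfbp4 had 156, 250.2 and 236 CPM in aKO, against 492, 383 and 487 CPM in Cont (log2 fold change -1.09 ± 0.15, edgeR adjusted p = 1.45e-05). Igfbp2 and the insulin receptor adaptor Grb14 rose instead. Igfbp2 had 21.3, 16.99 and 18.9 CPM in aKO, against 11.97, 9.59 and 11.5 CPM in Cont (log2 fold change 0.79 ± 0.16, edgeR adjusted p = 0.00155). Grb14 had 27.8, 25.4 and 25.5 CPM in aKO, against 17.2, 16.7 and 17.3 CPM in Cont (log2 fold change 0.62 ± 0.093, edgeR adjusted p = 2.88e-05). In the list of 21 tested IGF and insulin genes this gave 3 rises and 3 falls.

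Wnt pathway genes fell more often than they rose, with 10 falls and 2 rises among 26 tested genes and a median of 0.010. The number of falls was 6 without Cont replicate 1 or without aKO replicate 1, and the rises were 4 without aKO replicate 1. Wnt4, a ligand, had 3.41, 4.14 and 4.15 CPM in the aKO libraries, against 17.6, 13.7 and 17.2 CPM in the Cont libraries (log2 fold change -2.05 ± 0.16, edgeR adjusted p = 6.42e-10). Dkk2, an antagonist that binds the LRP coreceptors, had 7.73, 7.17 and 7.89 CPM in aKO, against 11.6, 14.8 and 15.2 CPM in Cont (log2 fold change -0.87 ± 0.13, edgeR adjusted p = 4.04e-05). The receptor Fzd5 was higher, with 152, 157 and 140.0 CPM in aKO, against 94.7, 97.97 and 94.7 CPM in Cont (log2 fold change 0.64 ± 0.077, edgeR adjusted p = 1.18e-06). Dkk3, a secreted protein of the Dickkopf family, was higher too, with 106, 99.7 and 106 CPM in aKO, against 78.3, 77.6 and 73.9 CPM in Cont (log2 fold change 0.44 ± 0.075, edgeR adjusted p = 1.73e-04). None of the 4 genes had a library that crossed into the other group.

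In the TGF-β and BMP list, 5 of 32 tested genes rose and 3 fell, with a median of 0.045. Without Cont replicate 1 or without aKO replicate 1 there were 3 rises and 1 fall, and without Cont replicate 3 there was 1 fall. The BMP ligand Gdf6 fell, with 2.29, 2.88 and 2.01 CPM in aKO, against 7.54, 6.09 and 6.99 CPM in Cont (log2 fold change -1.52 ± 0.18, edgeR adjusted p = 9.44e-07). Tgfb3, a ligand, rose, with 352, 304 and 312 CPM in aKO, against 243, 238 and 246 CPM in Cont (log2 fold change 0.41 ± 0.086, edgeR adjusted p = 0.00143). Fst, follistatin, which traps activins, rose as well, with 148, 128 and 132 CPM in aKO, against 90.9, 104 and 102 CPM in Cont (log2 fold change 0.46 ± 0.069, edgeR adjusted p = 3.03e-05). Libraries of the 2 genotypes did not overlap for any of these genes. Inhba, the activin A subunit, had 316, 218 and 239 CPM in aKO, against 179, 196 and 188 CPM in Cont (log2 fold change 0.46 ± 0.12, edgeR adjusted p = 0.00984), with an edgeR adjusted p of 0.133 without aKO replicate 1.

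Matrix genes moved in both directions, with 6 rises and 3 falls among 36 tested collagens and matrix proteins and a median of 0.051. The falls were 1 without Cont replicate 1 or Cont replicate 2 and 6 without aKO replicate 2. Tnc, tenascin C, a matrix protein of wounds and remodelling tissue, had 2549, 2255 and 2098 CPM in the aKO libraries, against 1362, 1338 and 1402 CPM in the Cont libraries (log2 fold change 0.75 ± 0.11, edgeR adjusted p = 2.51e-05). Comp, the cartilage oligomeric matrix protein, had 16.1, 22.1 and 17.99 CPM in aKO, against 6.15, 4.17 and 4.996 CPM in Cont (log2 fold change 1.87 ± 0.17, edgeR adjusted p = 3.23e-08). Col8a1, a short-chain collagen, had 458, 438 and 438 CPM in aKO, against 299, 323 and 306 CPM in Cont (log2 fold change 0.52 ± 0.076, edgeR adjusted p = 2.08e-05). All 3 were higher in each aKO library than in any Cont library. Acta1, skeletal α-actin, rose too, with 24.6, 23.9 and 18.1 CPM in aKO, against 9.19, 10.9 and 10.6 CPM in Cont (log2 fold change 1.12 ± 0.19, edgeR adjusted p = 2.59e-04), and its sequence is close to that of other actin genes, so that reads may have been split among them. The contractile gene Cnn1, calponin, had 273, 138 and 185 CPM in aKO, against 123, 118 and 123 CPM in Cont (log2 fold change 0.71 ± 0.19, edgeR adjusted p = 0.0191). Its edgeR adjusted p was 0.144 without aKO replicate 1, the library with the highest summed contractile genes. Of 16 tested smooth muscle and pericyte genes 2 rose and 2 fell, with a median of 0.081. The list summed to 5091 to 6808 CPM in aKO and 4792 to 4874 CPM in Cont, so that every aKO library was above every Cont library. It had 0 rises and 1 fall without aKO replicate 1, 0 rises without Cont replicate 3 and 1 rise without Cont replicate 1 or Cont replicate 2.

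Among the largest rises outside these lists were genes of several kinds. Tbx1, a T-box transcription factor often used as a marker of beige adipocytes, had 1.83, 2.81 and 1.87 CPM in the aKO libraries, against 0.265, 0.199 and 0.266 CPM in the Cont libraries (log2 fold change 3.10 ± 0.37, edgeR adjusted p = 1.31e-06). The Cont values of Tbx1 were near the floor, so the size of its fold is uncertain. Of 23 tested brown and beige fat genes only Tbx1 passed (4.35% called, against 10.8% of all genes), and the median of that list was 0.094. Without aKO replicate 3 the list also had 2 falls. Csf2ra, the GM-CSF receptor α chain, had 9.76, 10.9 and 8.72 CPM in aKO, against 3.703, 3.04 and 3.13 CPM in Cont (log2 fold change 1.57 ± 0.17, edgeR adjusted p = 2.21e-07). Prl2c2, a proliferin of the prolactin family whose reads can be shared with near-identical copies, had 21.9, 12.1 and 19.5 CPM in aKO, against 5.95, 6.09 and 5.93 CPM in Cont (log2 fold change 1.58 ± 0.25, edgeR adjusted p = 1.49e-04). In these genes the groups did not overlap. Vgf, a neuropeptide precursor, had 13.7, 13.9 and 9.62 CPM in aKO, against 5.36, 4.37 and 5.196 CPM in Cont (log2 fold change 1.32 ± 0.15, edgeR adjusted p = 3.44e-07). Nefm, a neurofilament subunit that neighbours and partly overlaps Nefl, had 17.8, 10.9 and 10.2 CPM in aKO, against 4.96, 3.97 and 5.86 CPM in Cont (log2 fold change 1.40 ± 0.24, edgeR adjusted p = 3.31e-04). Slc6a17, an amino acid transporter of synaptic vesicles, had 12.2, 8.94 and 9.48 CPM in aKO, against 3.44, 2.58 and 3.197 CPM in Cont (log2 fold change 1.74 ± 0.19, edgeR adjusted p = 3.13e-07). Levels of these 3 did not overlap between the genotypes, which was a condition for naming them. The receptor phosphatase Ptprz1, known from glia, had 24.4, 16.7 and 14.9 CPM in aKO, against 7.87, 8.401 and 7.06 CPM in Cont (log2 fold change 1.27 ± 0.16, edgeR adjusted p = 3.03e-06). Its lowest aKO library was above its highest Cont library.

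Of the genes that define a mature adipocyte, few passed. Of 30 tested adipocyte identity genes 2 rose and none fell (6.67% called, against 10.8% of all genes), and the median was 0.00. Pparg, the master regulator of fat cells, had 21.2, 24.8 and 26.9 CPM in the aKO libraries, against 19.4, 19.1 and 25.5 CPM in the Cont libraries (log2 fold change 0.19 ± 0.15, edgeR adjusted p = 0.539). Cebpa, its partner, had 40.3, 70.2 and 55.1 CPM in aKO, against 66.4, 52.4 and 67.7 CPM in Cont (log2 fold change -0.18 ± 0.18, edgeR adjusted p = 0.668). The adiponectin gene Adipoq, whose promoter drives the Cre, had 73.4, 133 and 131 CPM in aKO, against 90.5, 75.8 and 102 CPM in Cont (log2 fold change 0.33 ± 0.28, edgeR adjusted p = 0.57). Groups overlapped in Pparg, Cebpa and Adipoq alike. Fabp4, a fatty acid binding protein of fat cells, had 179, 303 and 357 CPM in aKO, against 287, 252 and 348 CPM in Cont (log2 fold change -0.078 ± 0.27, edgeR adjusted p = 0.92). Slc2a4, the insulin-responsive glucose transporter, had 1.703, 3.18 and 4.704 CPM in aKO, against 3.04, 1.92 and 3.13 CPM in Cont (log2 fold change 0.23 ± 0.36, edgeR adjusted p = 0.789). The list summed to 1547 to 2349 CPM in aKO and 1912 to 2407 CPM in Cont, with aKO replicate 1 the lowest of all 6. Ebf1, a transcription factor of adipocyte commitment, was among the rises (log2 fold change 0.26 ± 0.071, edgeR adjusted p = 0.0146). Its call was lost with an edgeR adjusted p of 0.0821 without aKO replicate 1. The list had 0 rises without Cont replicate 1 and 1 without Cont replicate 2, Cont replicate 3 or aKO replicate 1. With siNS the same list had 15 rises, 1 fall and a median of 0.58. A list-wide difference between the siRNAs was not tested, and gene by gene only Klf15, a transcription factor of adipocyte metabolism chosen here after its value was seen, had a genotype difference that differed between them past the threshold (log2 difference -0.998). That count of 1 was 3 without aKO siCEBPb replicate 2 and 2 without aKO siCEBPb replicate 3 or Cont siCEBPb replicate 2.

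Several thermogenic genes were at or near 0 in these cultures, while other members of the brown and beige list, such as Ckb, a creatine kinase, with 56.1 to 60.1 CPM in aKO and 56.9 to 65.7 CPM in Cont, were not. Ucp1, the uncoupling protein of brown fat, and Cidea, a lipid droplet protein, had 0 counts in all 6 libraries. Ppargc1a, a coactivator of mitochondrial genes, had 0.459, 0.813 and 0.761 CPM in aKO, against 0.727, 0.397 and 0.5995 CPM in Cont (log2 fold change 0.22 ± 0.35, edgeR adjusted p = 0.816). Prdm16, a brown fat determinant, had 7.01, 7.24 and 6.57 CPM in aKO, against 9.72, 7.67 and 7.39 CPM in Cont (log2 fold change -0.25 ± 0.12, edgeR adjusted p = 0.223). Neither passed the test. Fgf21, an endocrine growth factor, had 3.996, 3.92 and 3.18 CPM in aKO, against 5.09, 4.89 and 5.73 CPM in Cont (log2 fold change -0.50 ± 0.18, edgeR adjusted p = 0.0792), which did not pass. Leptin, Lep, stayed under 1 CPM in every library, with 0.197, 0.9603 and 0.623 CPM in aKO, against 0.265, 0.132 and 0.333 CPM in Cont (log2 fold change 1.22 ± 0.70, edgeR adjusted p = 0.338).

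**Figure D4:**
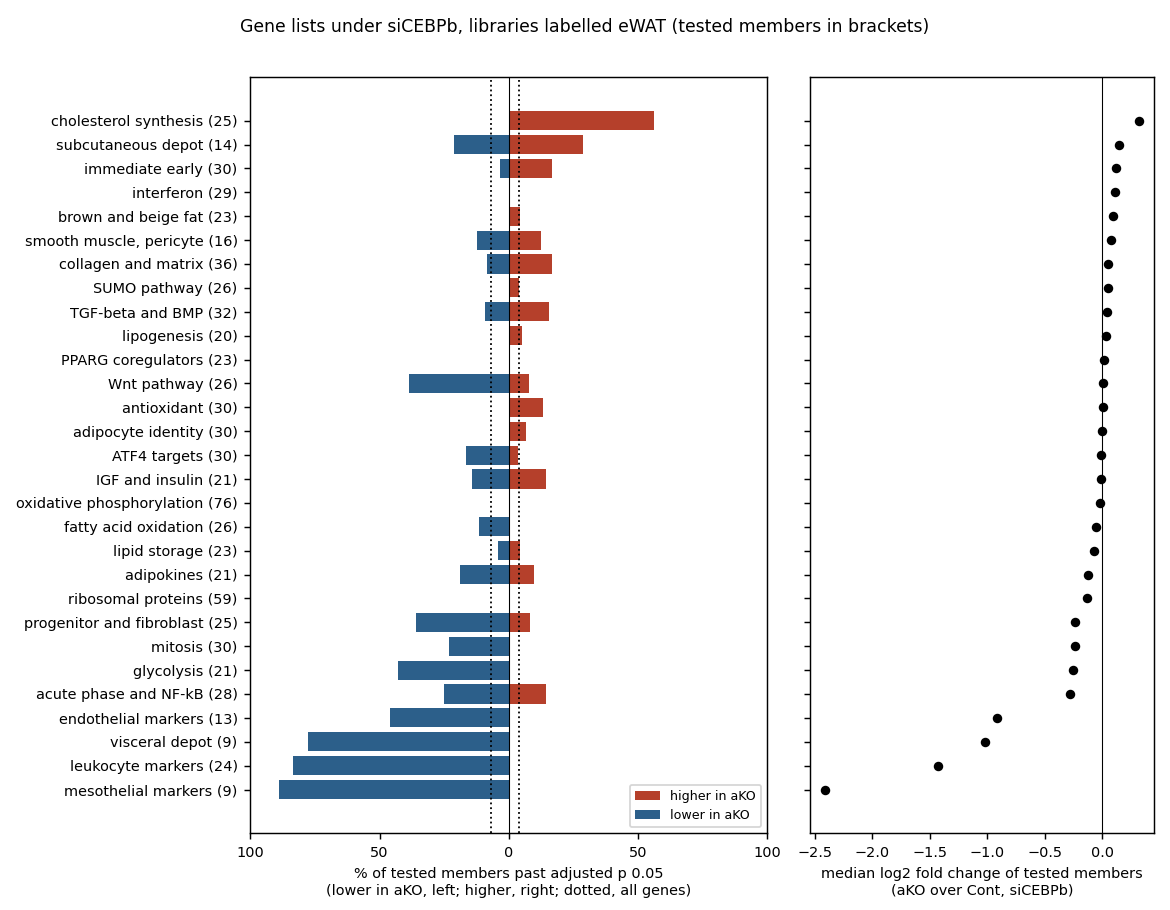
Left, the percentage of tested members of each list that were lower (bars to the left) or higher (bars to the right) in aKO than in Cont past an adjusted p of 0.05, with dotted lines at the share of all genes (6.87% and 3.90%). Right, the median log2 fold change of each list as a point. Mesothelial, leukocyte, visceral and endothelial lists lie lowest (medians -2.41, -1.43, -1.02 and -0.92), cholesterol synthesis lies highest (0.32), and adipocyte identity and oxidative phosphorylation lie near 0. The mesothelial median is the value of Upk1b, which was at 0 CPM in an aKO library.

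Cholesterol synthesis was the metabolic list with the most rises. Of 25 tested genes 14 rose and none fell, with a median of 0.32, and with siNS 20 rose and none fell. The count depended on single libraries: it was 7 without Cont replicate 3, 8 without aKO replicate 1, 9 without Cont replicate 1 and 9 without aKO replicate 3. Mvk, mevalonate kinase, had 55.2, 56.96 and 54.03 CPM in the aKO libraries, against 39.7, 36.9 and 43.7 CPM in the Cont libraries (log2 fold change 0.47 ± 0.072, edgeR adjusted p = 5.15e-05). Lss, which closes the sterol rings as lanosterol synthase, had 88.4, 77.9 and 85.2 CPM in aKO, against 63.5, 57.3 and 58.8 CPM in Cont (log2 fold change 0.49 ± 0.087, edgeR adjusted p = 2.66e-04). Hsd17b7, a reductase late in the pathway, had 134, 98.03 and 106 CPM in aKO, against 69.95, 77.9 and 67.3 CPM in Cont (log2 fold change 0.65 ± 0.12, edgeR adjusted p = 4.54e-04). Tm7sf2, a sterol reductase, had 20.8, 18.9 and 20.8 CPM in aKO, against 15.1, 13.6 and 12.6 CPM in Cont (log2 fold change 0.55 ± 0.10, edgeR adjusted p = 4.82e-04). Sqle, squalene epoxidase, had 133, 132 and 132 CPM in aKO, against 104, 107 and 105 CPM in Cont (log2 fold change 0.32 ± 0.064, edgeR adjusted p = 9.31e-04). The rises were small, and the groups did not overlap in any of the 5 genes.

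Sterol genes are known to be driven by SREBP together with NF-Y, which binds CCAAT, so the promoter windows of these enzymes are shown, from RefSeq on GRCm38.p6. Each window runs for 300 bases along the gene's strand, from 250 before the start, and capitals mark the motifs found. The motifs searched were CCAAT and the sterol response element TCACNCCAC on both strands, and no matches overlapped. Mvk lies at chr5:114444019-114444318 on the plus strand, Lss at chr10:76531355-76531654 on the plus strand, Hsd17b7 at chr1:169969156-169969455 on the minus strand and Tm7sf2 at chr19:6067801-6068100 on the minus strand.
Mvk: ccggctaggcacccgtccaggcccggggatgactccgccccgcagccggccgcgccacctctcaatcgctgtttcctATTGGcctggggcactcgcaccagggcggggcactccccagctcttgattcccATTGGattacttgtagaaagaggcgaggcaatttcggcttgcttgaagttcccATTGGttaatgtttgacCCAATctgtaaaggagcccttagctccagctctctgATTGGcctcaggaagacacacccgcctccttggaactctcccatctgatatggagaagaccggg
Lss: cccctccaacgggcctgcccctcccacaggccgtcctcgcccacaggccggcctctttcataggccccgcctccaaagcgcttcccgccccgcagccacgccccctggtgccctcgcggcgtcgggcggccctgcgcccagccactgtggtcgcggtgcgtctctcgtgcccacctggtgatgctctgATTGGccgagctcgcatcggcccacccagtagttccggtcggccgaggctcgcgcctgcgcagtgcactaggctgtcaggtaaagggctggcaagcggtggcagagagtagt
Hsd17b7: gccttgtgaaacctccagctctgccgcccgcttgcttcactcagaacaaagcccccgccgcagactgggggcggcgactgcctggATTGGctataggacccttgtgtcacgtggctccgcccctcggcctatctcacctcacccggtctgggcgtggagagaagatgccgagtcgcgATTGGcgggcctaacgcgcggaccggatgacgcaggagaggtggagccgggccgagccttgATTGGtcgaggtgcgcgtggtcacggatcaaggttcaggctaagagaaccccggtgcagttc
Tm7sf2: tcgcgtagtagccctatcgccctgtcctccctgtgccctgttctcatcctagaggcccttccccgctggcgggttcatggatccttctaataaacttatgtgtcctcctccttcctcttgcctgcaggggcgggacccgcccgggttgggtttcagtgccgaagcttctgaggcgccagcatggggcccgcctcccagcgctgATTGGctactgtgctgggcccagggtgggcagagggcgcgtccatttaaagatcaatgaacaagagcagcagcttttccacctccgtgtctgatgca
In these windows CCAAT occurred 5 times in Mvk, 3 times in Hsd17b7 and 1 time each in Lss and Tm7sf2, and TCACNCCAC was not found. Of the 25 cholesterol genes 17 had a window, and CCAAT was in 15 of them (88.2%), against 12289 of 32851 windows (37.4%) in the whole table. It was in all 10 of the genes that rose and had a window, and also in genes of the list that did not rise. The share thus describes the list and not the rises. For each cholesterol gene only the first listed window was counted, while the whole table counted every window. TCACNCCAC was in 1 of 17 windows (5.88%), against 408 of 32851 (1.24%). A match describes the letters of the window and is not shown to be a site.

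Glycolysis genes fell in 9 of 21 tested cases and rose in none, with a median of -0.25. The count was 4 without Cont replicate 3 and 5 without aKO replicate 3. Pfkl, the liver-type phosphofructokinase, had 153, 185 and 165 CPM in the aKO libraries, against 224, 207 and 229.9 CPM in the Cont libraries (log2 fold change -0.39 ± 0.073, edgeR adjusted p = 4.14e-04). Pdk1, which holds pyruvate back from mitochondria, had 39.8, 44.9 and 48.1 CPM in aKO, against 63.7, 71.6 and 63.5 CPM in Cont (log2 fold change -0.58 ± 0.093, edgeR adjusted p = 7.49e-05). Aldoc, an aldolase, had 1.38, 1.995 and 2.56 CPM in aKO, against 5.29, 6.02 and 4.13 CPM in Cont (log2 fold change -1.38 ± 0.22, edgeR adjusted p = 6.66e-05). All 3 stood apart between the groups. Of 26 tested fatty acid oxidation genes 3 fell and none rose (11.5% called, close to the 10.8% of all genes). Cpt1a, which admits fatty acids to mitochondria, had 69.97, 71.3 and 80.9 CPM in aKO, against 107, 104 and 104 CPM in Cont (log2 fold change -0.50 ± 0.076, edgeR adjusted p = 3.25e-05). Acot2, a mitochondrial thioesterase, had 15.9, 20.8 and 21.4 CPM in aKO, against 31.3, 34.1 and 28.7 CPM in Cont (log2 fold change -0.70 ± 0.12, edgeR adjusted p = 3.05e-04). The third was the thiolase gene Acaa2 (log2 fold change -0.37 ± 0.11, edgeR adjusted p = 0.0302), with an edgeR adjusted p of 0.23 without aKO replicate 1.

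None of 76 nuclear genes of oxidative phosphorylation and none of 59 ribosomal protein genes passed in either direction, with medians of -0.020 and -0.13. Of the ribosomal protein genes 56 had a negative value. That list had 10 falls and 1 rise in the fit without the shallow library, iWAT aKO siNS replicate 2, and 6 falls and 1 rise with the 12 eWAT libraries only, and the oxidative phosphorylation list had 1 rise and 0 falls in each of these fits. Of 13 mitochondrial DNA genes none passed, and their levels followed aKO replicate 2: mt-Co1 had 2894, 1624 and 3241 CPM in aKO, against 2885, 3161 and 2599 CPM in Cont. Lipogenesis had 1 rise in 20 (5% called, against 10.8% of all genes), the fatty acid elongase Elovl6, with 54.9, 50.2 and 59.1 CPM in aKO, against 34.6, 35.2 and 41.2 CPM in Cont (log2 fold change 0.57 ± 0.095, edgeR adjusted p = 1.34e-04). Fatty acid synthase, Fasn, had 636, 1004 and 959.9 CPM in aKO, against 862, 652 and 938 CPM in Cont (log2 fold change 0.085 ± 0.20, edgeR adjusted p = 0.878). Among 23 lipid storage and lipolysis genes the monoglyceride lipase Mgll rose, with 79.2, 67.5 and 72.4 CPM in aKO, against 50.2, 52.4 and 53.8 CPM in Cont (log2 fold change 0.49 ± 0.11, edgeR adjusted p = 0.00289). Mogat2 fell at levels near 1 CPM, a call that was lost in 5 of the 6 fits without a library and kept without Cont replicate 1. The storage list had 8.7% called, against 10.8% of all genes, with 2 rises without aKO replicate 1 and 2 falls without Cont replicate 1. Glutathione and NRF2 genes had 4 rises in 30 (13.3% called, against 10.8% of all genes). Gsta4, a glutathione transferase for lipid peroxidation products, had 26.1, 18.8 and 25.9 CPM in aKO, against 11.3, 8.47 and 9.19 CPM in Cont (log2 fold change 1.29 ± 0.18, edgeR adjusted p = 2.27e-05). Gclc, which makes the precursor of glutathione, had 59.4, 51.3 and 55.5 CPM in aKO, against 41.7, 40.5 and 38.04 CPM in Cont (log2 fold change 0.47 ± 0.081, edgeR adjusted p = 1.78e-04). Without aKO replicate 1 the list had 2 rises.

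Mitosis genes leaned down: 7 of 30 fell, none rose, and 29 of 30 had a negative value, with a median of -0.24. The number of falls was 14 without aKO replicate 1, 3 without aKO replicate 2, 2 without aKO replicate 3 and 2 without Cont replicate 2. Mki67, a protein of dividing cells, had 95.2, 77.8 and 83.6 CPM in the aKO libraries, against 124, 126 and 112 CPM in the Cont libraries (log2 fold change -0.49 ± 0.079, edgeR adjusted p = 8.04e-05). Bub1b, a spindle checkpoint kinase, had 20.2, 16.9 and 18.1 CPM in aKO, against 22.02, 24.1 and 25.98 CPM in Cont (log2 fold change -0.38 ± 0.092, edgeR adjusted p = 0.00542). The groups did not overlap in either. In 30 tested DNA replication genes 2 fell and 1 rose, the riser being Rrm2, a subunit of ribonucleotide reductase, with 82.7, 70.1 and 68.4 CPM in aKO, against 53.4, 55.9 and 50.4 CPM in Cont (log2 fold change 0.47 ± 0.10, edgeR adjusted p = 0.00256). The falls there were 1 without Cont replicate 1, Cont replicate 3, aKO replicate 2 or aKO replicate 3. The share of the replication list called, 10%, was close to the 10.8% of all genes.

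Immediate early genes included 5 rises and 1 fall among 30 tested, with a median of 0.12. Without aKO replicate 1 there were 3 rises, and without aKO replicate 2 there were 2 falls. Egr2, a zinc finger factor of early adipogenesis, had 17.4, 18.03 and 16.5 CPM in aKO, against 11.4, 12.7 and 11.2 CPM in Cont (log2 fold change 0.55 ± 0.10, edgeR adjusted p = 2.23e-04). Egr1 had 45.3, 47.9 and 43.9 CPM in aKO, against 38.1, 33.9 and 38.7 CPM in Cont (log2 fold change 0.31 ± 0.069, edgeR adjusted p = 0.00326). Atf3, a stress-induced factor, fell, with 5.57, 10.3 and 9.27 CPM in aKO, against 14.4, 14.02 and 14.5 CPM in Cont (log2 fold change -0.78 ± 0.18, edgeR adjusted p = 0.00334). Of 30 ATF4 targets 5 fell and 1 rose, with 3 falls without aKO replicate 1 and 0 rises without any 1 of the 6 libraries. Trib3, a pseudokinase of that response, had 63.4, 92.1 and 69.3 CPM in aKO, against 115, 104 and 107 CPM in Cont (log2 fold change -0.54 ± 0.10, edgeR adjusted p = 3.55e-04). Each of these genes kept the groups apart.

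Few genes of the SUMO pathway changed at the RNA level (3.85% called, against 10.8% of all genes). Of 26 SUMO pathway genes 1 rose, the related protease gene Senp5, with 97.2, 78.2 and 75.3 CPM in aKO, against 67.4, 67.1 and 62.9 CPM in Cont (log2 fold change 0.35 ± 0.086, edgeR adjusted p = 0.0075). Its edgeR adjusted p was 0.122 without aKO replicate 1, where 1 gene of the list fell, and the list had 2 rises without aKO replicate 3. In the C/EBP family 2 of 6 tested genes fell, Cebpb and Ddit3, and 1 without aKO replicate 1 or without Cont replicate 3. Ddit3, the stress-induced member CHOP, had 68.7, 83.03 and 79.3 CPM in aKO, against 89.5, 93.3 and 98.4 CPM in Cont (log2 fold change -0.28 ± 0.071, edgeR adjusted p = 0.00778), with an edgeR adjusted p of 0.0949 without aKO replicate 1. Cebpd, an early partner of Cebpb, had 57.2, 58.3 and 57.5 CPM in aKO, against 61.03, 59.5 and 64.8 CPM in Cont (log2 fold change -0.10 ± 0.10, edgeR adjusted p = 0.644). None of 23 tested PPARγ coregulators passed the test, with a median of 0.019. Within 1 Mb of Senp2 or Adipoq on chromosome 16, 25 genes were tested, of which 1 rose and 3 fell (3.90% and 6.87% of all genes). The single rise was that of Eif4a2, a translation factor that overlaps Rfc4 on the opposite strand, with 280.5, 222 and 259 CPM in aKO, against 174, 188 and 163 CPM in Cont (log2 fold change 0.54 ± 0.082, edgeR adjusted p = 4.19e-05). The falls were 3: the mRNA-binding protein gene Igf2bp2, with 41.5, 46.2 and 39.9 CPM in aKO, against 51.1, 51.1 and 52.4 CPM in Cont (log2 fold change -0.28 ± 0.077, edgeR adjusted p = 0.0174), Kng2 (log2 fold change -0.81 ± 0.21, edgeR adjusted p = 0.00915), and Ahsg, which had at most 1 CPM in any library. Without aKO replicate 1 the edgeR adjusted p of Kng2 was 0.0629 and that of Ahsg 0.0603, and Igf2bp2 lost its call without Cont replicate 1, Cont replicate 3, aKO replicate 1 or aKO replicate 3 (edgeR adjusted p of up to 0.0997).

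The same genotype contrast with siNS shows where Cebpb knockdown went with another result. With siNS 3013 genes passed (20.4%), 1405 up (9.50%) and 1608 down (10.9%). Of the 576 rises under siCEBPb, 252 (43.8%) were also rises under siNS, which is 17.9% of the siNS rises. Of the 1016 falls, 534 (52.6%) were shared, which is 33.2% of the siNS falls. The 2 contrasts have no library in common. The difference between the genotype effects, fitted as an interaction, passed in 938 genes (6.34%), with 445 more positive under siCEBPb (3.01%) and 493 more negative (3.33%). Leaving out 1 of the 12 eWAT libraries gave 434 to 1079, and the lowest was without aKO siCEBPb replicate 1. The count was 543 without Cont siCEBPb replicate 1, 558 without Cont siCEBPb replicate 3 and 571 without aKO siNS replicate 3. Star illustrates a shared fall of unequal size: with siNS it had 3.08, 3.18 and 3.63 CPM in aKO, against 19.98, 25.6 and 21.7 CPM in Cont, and its interaction was 1.07 ± 0.19, edgeR adjusted p = 7.77e-04. For Wt1, with similar values under both siRNAs, the interaction did not pass at -0.19 ± 0.24, edgeR adjusted p = 0.743.

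Both siRNAs gave called changes of opposite sign in 61 genes, 38 that rose under siCEBPb and fell under siNS and 23 that fell under siCEBPb and rose under siNS. The interaction passed in all 61, which choosing genes by opposite calls made almost certain, so it is no separate support. Without aKO siCEBPb replicate 1 the number was 34, and without Cont siCEBPb replicate 1 or Cont siCEBPb replicate 3 it was 39. Ptgs2, the inducible cyclooxygenase, had 69.2, 27.9 and 37.8 CPM in the aKO libraries, against 18.3, 21.9 and 18.6 CPM in the Cont libraries under siCEBPb (log2 fold change 1.204 ± 0.27, edgeR adjusted p = 0.00663). In the fit of the 6 libraries only it did not pass (edgeR adjusted p = 0.162). Under siNS it had 6.24, 6.57 and 5.44 CPM in aKO, against 20.2, 23.9 and 20.9 CPM in Cont (log2 fold change -1.83 ± 0.35, edgeR adjusted p = 9.32e-04). Its aKO libraries were thus above Cont with 1 siRNA and below Cont with the other, and the interaction was 3.04 ± 0.44, edgeR adjusted p = 4.46e-04. Tnc, which rose under siCEBPb, had 1010, 901 and 912 CPM in aKO, against 1442, 1165 and 1337 CPM in Cont under siNS, and its interaction was 1.23 ± 0.16, edgeR adjusted p = 1.54e-05. Inhba had 74.4, 74.5 and 68.2 CPM in aKO, against 165, 169.7 and 164 CPM in Cont under siNS, with an interaction of 1.66 ± 0.17, edgeR adjusted p = 1.15e-06. In these 3 genes the aKO value under siCEBPb was above that of Cont and the siNS value below it.

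The opposite pattern was shown by Ndnf, a secreted factor made by neurons and other cells, which had 2.36, 2.29 and 2.77 CPM in the aKO libraries, against 6.94, 7.28 and 6.86 CPM in the Cont libraries under siCEBPb (log2 fold change -1.50 ± 0.14, edgeR adjusted p = 2.11e-08). Under siNS it had 15.4, 15.98 and 15.2 CPM in aKO, against 8.48, 8.28 and 8.19 CPM in Cont (log2 fold change 0.90 ± 0.10, edgeR adjusted p = 2.70e-07). The interaction was -2.40 ± 0.17, edgeR adjusted p = 1.72e-09. Egfl6, a secreted EGF-repeat protein of fat stroma, had 6.62, 10.7 and 9.48 CPM in aKO, against 15.2, 11.2 and 14.7 CPM in Cont under siCEBPb (log2 fold change -0.62 ± 0.20, edgeR adjusted p = 0.0436) and 33.2, 30.6 and 34.7 CPM in aKO, against 9.72, 7.05 and 7.33 CPM in Cont under siNS (log2 fold change 2.03 ± 0.18, edgeR adjusted p = 3.77e-08). Its call under siCEBPb was lost without aKO replicate 1 (edgeR adjusted p = 0.234), without Cont replicate 1, Cont replicate 3 or aKO replicate 3, with the replicate block and without the shallow library, iWAT aKO siNS replicate 2. The interaction was -2.65 ± 0.27, edgeR adjusted p = 2.84e-06. C3 passed the threshold under siCEBPb and not under siNS. With siNS it had 450.2, 417 and 470.4 CPM in aKO, against 506, 555 and 436 CPM in Cont (log2 fold change -0.16 ± 0.23, edgeR adjusted p = 0.697), and its interaction was -1.92 ± 0.34, edgeR adjusted p = 0.0022. Igfbp4 likewise had 989, 967 and 1060 CPM in aKO, against 932, 1010 and 909 CPM in Cont under siNS and an interaction of -1.17 ± 0.21, edgeR adjusted p = 0.00107.

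**Figure D5:**
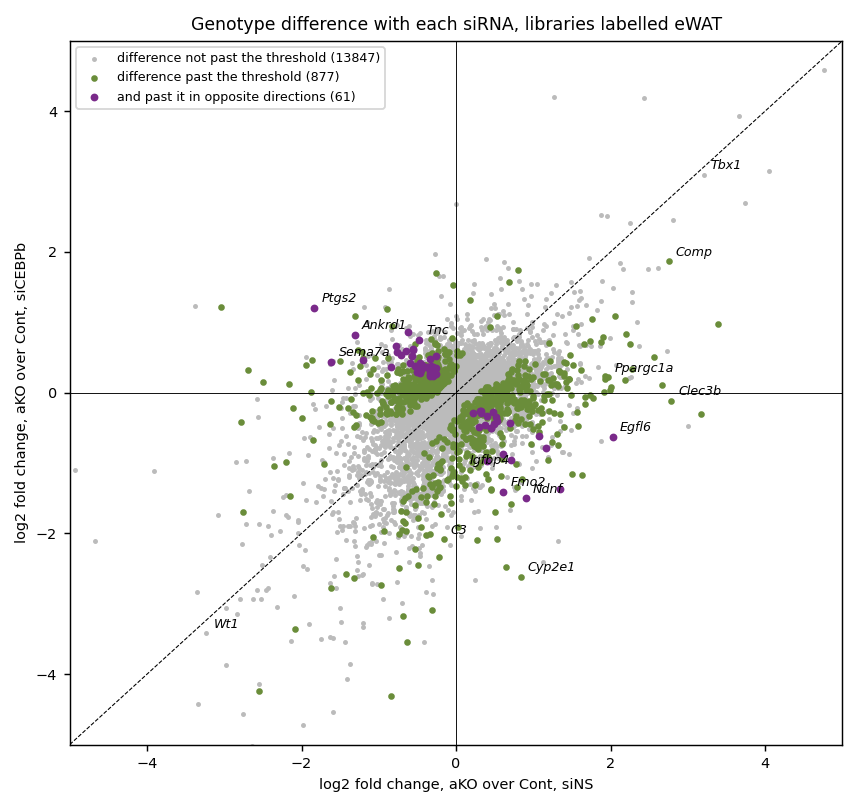
Log2 fold change of aKO over Cont with siCEBPb (vertical axis) against that with siNS (horizontal axis) for the tested genes in libraries labelled eWAT, with the line of equality dashed and 3 genes outside the axes. The 61 genes called in opposite directions lie in the upper left (Ptgs2, Ankrd1, Tnc) and lower right (Egfl6, Ndnf, Fmo2), and a further 877 genes passed the interaction.

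Some genes passed with siNS and not with siCEBPb, and the interaction was past the threshold. Clec3b, tetranectin, had 1.83, 4.95 and 5.12 CPM in the aKO libraries, against 4.298, 4.43 and 3.997 CPM in the Cont libraries under siCEBPb (log2 fold change -0.11 ± 0.28, edgeR adjusted p = 0.884). Under siNS it had 16.7, 14.7 and 20.1 CPM in aKO, against 2.395, 2.98 and 2.06 CPM in Cont (log2 fold change 2.78 ± 0.25, edgeR adjusted p = 2.44e-08). Its interaction was -2.90 ± 0.38, edgeR adjusted p = 6.06e-05. Ppargc1a, low under siCEBPb, had 2.46, 1.96 and 2.66 CPM in aKO, against 0.684, 0.475 and 0.641 CPM in Cont under siNS, with an interaction of -1.74 ± 0.46, edgeR adjusted p = 0.0227. For the adipocyte gene Adipoq, which had 126, 157 and 185 CPM in aKO, against 58.2, 80.2 and 70.6 CPM in Cont under siNS (log2 fold change 1.17 ± 0.28, edgeR adjusted p = 0.00627), the interaction did not pass (-0.84 ± 0.39, edgeR adjusted p = 0.242). All 30 mitosis genes fell under siNS, and the interaction was positive past the threshold in 10 of them, 3 without aKO siCEBPb replicate 1, 5 without Cont siCEBPb replicate 1 and 6 without Cont siCEBPb replicate 3, Cont siNS replicate 1 or aKO siNS replicate 2. In the immediate early list 11 of 30 interactions passed and all were positive, 6 of them without aKO siCEBPb replicate 1 and 7 without Cont siNS replicate 1. In the leukocyte list 6 were negative past the threshold. That count was 0 without aKO siCEBPb replicate 1, 1 without Cont siCEBPb replicate 1, 2 without Cont siCEBPb replicate 3, aKO siNS replicate 1 or aKO siNS replicate 2, and 3 without Cont siNS replicate 3 or aKO siNS replicate 3.

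In the libraries labelled iWAT, 1483 genes passed under siCEBPb (10.0%). The difference of the genotype effects between the labelled depots passed in 1 gene of 14785 (0.00676%), the predicted pseudogene Gm6900, and in 170 (1.15%) at an unadjusted p under 0.05. DESeq2 called 0 genes and limma voom 1. For Wt1 the genotype difference was -3.42 ± 0.15 in eWAT and -3.18 ± 0.15 in iWAT, and for Igfbp3 it was -2.58 ± 0.20 in eWAT and -2.52 ± 0.20 in iWAT. For Tnc it was 0.75 ± 0.11 in eWAT and 0.74 ± 0.11 in iWAT. A p that misses the threshold does not show that the depots act alike, and the shared deviations of same-numbered libraries apply here too.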

How the data were processed

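RNA of cultured mouse adipocytes was sequenced with a directional NEBNext Ultra II kit, per the labels' protocols. The authors deposited a table of raw counts per gene. CASAVA, cutadapt 2.7, TopHat2 2.1.1, HTSeq and edgeR and the build GRCm38 are named in the submitters' processing notes, and for the strand setting of the counting the sources used here give nothing. Libraries were matched to groups by their titles. The 5 summary lines of the counter, 29.5% to 34.8% of the listed reads of the 6 libraries, stayed out. Gene positions came from GENCODE M21.

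The tests were run with edgeR 4.0.16 (R 4.3.3). Genes were filtered on the 8 groups by filterByExpr (minimum count 10). The model had TMM scaling, 1 mean per group over all 24 libraries and robust quasi-likelihood F tests (glmQLFit), so that all groups shared 1 estimate of the spread. The fit included the shallow library, iWAT aKO siNS replicate 2, with 603585 gene counts and 93.3% of its reads not aligned. The other libraries had at least 8435494 gene counts. P-values were adjusted by Benjamini-Hochberg over the 14785 genes, with a threshold of 0.05. The comparisons were aKO against Cont under siCEBPb, under siNS and in iWAT, and the interactions between siRNAs and between depots. CPM are scaled by TMM. No 2 libraries of a group agreed within sampling noise (chi-square over degrees of freedom 1.97 to 15.4). The script was tested on simulated counts.

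The groups, members and 36 gene lists were chosen with earlier results of these data known. The text may name 21 fixed genes, in each direction the 15 called genes with the largest fold change, a mean log2 CPM of at least 1 and no overlap between groups, the 5 members of each list with the smallest p (or the 4 with the highest level where under 3 were called), the 8 largest interactions in each direction, and genes within 1 Mb of Senp2 or Adipoq. Klf15 and the markers counted in a list or lacking reads are exceptions. Some genes that the rule names are not reported here. Lists are described by counts and medians only. Alternatives were DESeq2 1.42.0, limma 3.58.1 voom, other filters and scaling, a fold threshold, a replicate block, fewer libraries and each library left out.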

Additional observations from a re-analysis of the deposited data

Results flagged for a closer look

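The following results were singled out because the genotype effect under siCEBPb differed from that under siNS or in iWAT, by a test of the difference itself. The genotype effect differed between the siRNAs in 938 genes. It differed between the libraries labelled eWAT and iWAT in 1 gene, Gm6900, a processed pseudogene, with a log2 difference of -1.84. Changes of opposite sign under siCEBPb and siNS were called in 61 genes. Among the genes named under the rule, those with a higher genotype effect under siCEBPb than under siNS and opposite calls were Ptgs2 (log2 difference 3.04), the mechanosensitive cofactor gene Ankrd1 (2.13), the membrane semaphorin gene Sema7a (2.05), Inhba (1.66), Tnc (1.23), Col11a1 (0.80), Col8a1 (0.79), the MAP kinase phosphatase gene Dusp4 (0.70) and Egr1 (0.58). Those with a lower effect under siCEBPb were Ddit3 (-0.51), the flavin monooxygenase gene Fmo2 (-2.02), Ndnf (-2.40) and Egfl6 (-2.65). Several of these calls under siCEBPb rested on single libraries. Without aKO replicate 1 the calls of Sema7a (edgeR adjusted p = 0.0549), Inhba (0.133), Ddit3 (0.0949) and Egfl6 (0.234) were lost, and without Cont replicate 3 that of Col11a1 (0.0727), which was also lost without aKO replicate 2. Ptgs2 and Inhba did not pass in the fit of the 6 libraries only. The part that aKO siCEBPb replicate 1, the library with the highest Ptgs2 and Inhba, has in these differences was not tested beyond the fits without it.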

How the results depend on the processing

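Of the genes named by the rule, 3403 values under the alternatives stayed on their side of the threshold. A further 159 no longer passed and 32 passed only there. No value that was called changed sign. Some that were not called did, such as that of Cebpa, at -0.3854 to 0.0093 with a library left out. The genotype comparison under siCEBPb, with 1592 calls, gave 1579 with DESeq2 size factors, 1661 with no filter, 1515 with a stricter filter, 1578 with the 6 libraries only, 1963 with the 12 eWAT libraries only, 1554 with limma voom, 1298 with DESeq2 and 2161 without the shallow library, iWAT aKO siNS replicate 2. The shallow library, with 603585 gene counts, was part of the main fit and of its estimate of the spread. A test against a fold of 1.2 (glmTreat) gave 716. Leaving out each replicate in turn gave 1097 to 1463. The 938 genes of the siRNA difference became 297 with the fold threshold, 1677 without the shallow library and 1447 with the 12 eWAT libraries, and 434 to 1079 with each replicate left out. The depot difference of 1 gene became 2 with no filter and 0 with the fold threshold or DESeq2, and 0 to 1 with a replicate left out. Opposite calls, counted under alternatives chosen after seeing the data, were 61, and became 98 with no filter, 9 with the fold threshold, 102 without the shallow library, 108 with the 12 eWAT libraries and 34 to 77 with a replicate left out. These last alternatives change the number of genes or libraries in the fit or the threshold by their own construction, and other causes were not tested.

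Same-numbered aKO and Cont libraries deviated in opposite ways (r -0.189, -0.504 and -0.132 over 8159 genes), so the numbers were not taken as pairs. With a replicate block the genotype comparison had 1452 calls, the siRNA difference 778, the opposite calls 60 and the depot difference 0.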
